A study of Mus musculus with 24 samples.

Results

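The TRIM family comprises ubiquitin ligases that share an N-terminal tripartite motif. Members were the genes whose array name is Trim followed by a number and at most 1 letter, which 52 names on the array met (97 probes). A member was tested where all 3 arrays of 1 or more of the 8 groups had a probe well above background, and its brightest such probe stood for the gene. This left 38 TRIM genes among the 15298 gene names tested. The filter was met in groups of both lines by 32 of them. It was met in Tbc1d23 groups alone by 2 (Trim66 and Trim69) and in CAT groups alone by 4 (Trim34, Trim62, Trim63 and Trim67). A gene that passed only through groups where it is high was selected for that difference, which is thus no test. Trim62 and Trim63 had no call in any comparison. RNA came from RAW264.7 cells, a mouse macrophage-like line, grown with 400 ug/ml G418 and carrying a construct that overexpresses Tbc1d23 or, as the control, chloramphenicol acetyltransferase (CAT). Each line was exposed to 20 ng/ml bacterial lipopolysaccharide (LPS), the ligand of TLR4, for 1, 3 or 5 h or left unexposed (0 h), with 3 arrays in each of the 8 groups. The design text calls the replicates biological and does not say that they were separate cultures, and the p-values thus cover no more than the spread among these samples. Each construct is represented by 1 line, so a difference between the lines cannot be told apart from a difference between clones or pools of cells. RNA was taken from whole cultures, in which fewer expressing cells and less RNA per cell cannot be told apart.

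TRIM proteins carry a RING finger, B-boxes and a coiled coil, followed by a C-terminal part that differs between subfamilies and often binds the substrate. Many act in innate immunity: in macrophages some are induced by type I interferon, which TLR4 elicits through the adaptor TRIF, and place ubiquitin chains on sensors, adaptors and kinases of antiviral and NF-kB signalling. Others are chromatin cofactors, cytoskeletal proteins or quality-control ligases with household roles.

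Promoter windows from RefSeq (GRCm38.p6, 250 bases before to 50 after a transcript's start) were given for 28 of the 38 members. The interferon-stimulated response element (ISRE) core, searched on both strands as GAAA, any 2 bases, GAAA, was present in 4 of the 8 such members that LPS raised in the CAT line at 3 or 5 h. It was present in 0 of the 9 that LPS lowered and in 0 of the 11 others, against 3.99% of all 27025 genes and 3.44% of all 32851 windows. An interferon gamma activated site (GAS, searched as TTC, any 3 bases, GAA) was in 0 of the 8 raised, 1 of the 9 lowered and 1 of the 11 other members, against 9.55% of genes and 8.30% of windows. The NF-kB consensus, on both strands, was in 0 of the 28, against 5.14% of genes and 4.51% of windows. These matches are descriptions of letters in a window. The 4 windows are shown because the genes that carry them rose together in the CAT line. Capitals mark the ISRE core, or overlapping cores, in either orientation, and each sequence runs 5' to 3' on the gene's strand.
Trim30a, chr7:104465144-104465443, minus strand: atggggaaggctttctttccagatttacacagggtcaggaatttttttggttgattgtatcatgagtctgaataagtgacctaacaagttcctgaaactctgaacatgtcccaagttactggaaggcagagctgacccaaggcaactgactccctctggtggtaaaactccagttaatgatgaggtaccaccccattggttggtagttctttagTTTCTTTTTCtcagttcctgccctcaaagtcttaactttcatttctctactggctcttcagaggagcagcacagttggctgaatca
Trim34a, chr7:104244207-104244506, plus strand: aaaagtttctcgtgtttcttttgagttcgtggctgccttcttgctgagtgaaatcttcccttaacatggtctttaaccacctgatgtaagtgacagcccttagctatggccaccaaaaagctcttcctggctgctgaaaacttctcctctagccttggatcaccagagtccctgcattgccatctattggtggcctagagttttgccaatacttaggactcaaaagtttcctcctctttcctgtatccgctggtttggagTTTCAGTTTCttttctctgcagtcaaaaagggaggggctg
Trim21, chr7:102565433-102565732, minus strand: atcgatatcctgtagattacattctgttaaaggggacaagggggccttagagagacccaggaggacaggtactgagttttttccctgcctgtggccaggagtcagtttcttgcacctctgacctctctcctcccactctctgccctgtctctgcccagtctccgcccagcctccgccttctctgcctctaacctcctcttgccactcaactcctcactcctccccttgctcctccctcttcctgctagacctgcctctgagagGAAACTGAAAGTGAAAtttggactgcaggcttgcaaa
Trim26, chr17:36836896-36837195, plus strand: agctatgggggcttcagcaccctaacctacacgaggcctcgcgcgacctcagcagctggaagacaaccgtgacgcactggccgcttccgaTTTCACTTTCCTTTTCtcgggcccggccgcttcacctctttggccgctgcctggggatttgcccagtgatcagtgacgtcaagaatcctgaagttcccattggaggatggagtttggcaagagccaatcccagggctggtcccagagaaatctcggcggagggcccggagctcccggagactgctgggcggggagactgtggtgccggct
Counted from the transcript's first base as 0, the core began at -36 in Trim30a, at 10 in Trim34a, and at 13 and 19 in Trim21. In Trim26 overlapping cores began at -160 and -154. Trim30a had another window, around a downstream start site, which also held the core (at 2). The arrays name these genes Trim30, Trim34, Trim21 and Trim26, and those names are used for their values.

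Between 42.0 and 69.5% of the probes on an array were well above background, and no spot was saturated. The lowest and the highest share were those of Tbc1d23 replicates 2 and 1 at 0 h, the baseline of that line's responses. On CAT arrays the share was 48.4 to 54.0%. Across genes, arrays of the same group had correlations of 0.967 to 0.993. The macrophage markers Ptprc, Csf1r, Itgam, Adgre1, Cd68, Lyz2, Fcgr1 and Cd14 were well above background on 24 of 24 arrays. Of the osteoclast markers, Acp5 and Ctsk were well above background on 4 and 2 of the 12 Tbc1d23 arrays and on 12 and 12 of the 12 CAT arrays, and Calcr on 2 and 0; their part in the line differences was not tested. The Tbc1d23 transcript itself differed by 0.03 ± 0.21 (log2, Tbc1d23 minus CAT line) at 0 h by its brightest probe and was not called at any time (limma adjusted p = 0.0681 to 0.933). Within the slide run described next its 3 h difference was 0.87 (adjusted p = 0.00868). The sources used here do not say which part of it the construct carries, and the lines are called by their labels throughout. The 24 arrays lie on 6 slides, each of which holds the 4 times of 1 replicate of 1 line. By serial number the slides form runs: Tbc1d23 replicates 1 and 2 lie in a run of their own, and Tbc1d23 replicate 3 shares a run with all CAT replicates. Values within that run set 1 Tbc1d23 array against 3 CAT arrays at each time.

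By the fit without a block LPS changed 5 of the 38 TRIM genes in the Tbc1d23 line and 24 of 38 in the CAT line at 1 or more times. With the replicate block the Tbc1d23 count was 12, and the CAT count with it is not given here. Levels are processed signals on the log2 scale after subtraction of the array's 75th percentile. Differences are on the log2 scale with the standard error of the limma fit (n = 3 arrays per group). A call means a p under 0.05 after Benjamini-Hochberg adjustment over all 15298 names.

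In the Tbc1d23 line 0 members were called at 1 h (limma; background 0.837% of all gene names higher and 0.817% lower; 0 members at an unadjusted p under 0.05). At 3 h Trim13 rose and 4 fell (Trim11, Trim21, Trim25 and Trim65), against 3.49% and 3.30% of all names, and at 5 h 0 rose and 1, Trim65, fell, against 3.02% and 3.32%. With the replicate of each line as a block, through its slide, 1 rose and 10 fell at 3 h and 0 rose and 5 fell at 5 h. The percentages of names here are from the fit without a block, and those with the block are not given. In the CAT line 1 member rose (Trim13) and 1 fell (Trim21) at 1 h, against 3.64% and 3.95% of names, or 1 and 9 with the replicate block. At 3 h 9 rose and 12 fell, against 16.1% and 18.7% of names, and at 5 h 10 rose and 11 fell, against 18.3% and 23.4%. The risen include Trim34, which passed the filter only through CAT groups at 3 and 5 h. They also include Trim69, which was not well above background on any CAT array at 0 or 3 h. The members' median response in the CAT line was -0.25 at 3 h and -0.11 at 5 h, beside -0.02 and 0.01 over all names. With median scaling of the arrays the split in the CAT line was 8 higher and 4 lower at 3 h and 10 and 6 at 5 h. Of all names 1180 were then higher and 1219 lower at 3 h, and 1417 and 1857 at 5 h. In the Tbc1d23 line at 3 h the split was 1 and 0 with median scaling (all names 457 and 31). It was 2 and 3 with quantile normalization (643 and 488) and 2 and 1 in the authors' deposited values (681 and 423). In the CAT line at 1 h it was 1 and 0 with median scaling (320 and 109) and 1 and 4 with quantile normalization (618 and 691). Median scaling moved the median of all names in the Tbc1d23 responses to 0.47, 0.51 and 0.23 at 1, 3 and 5 h and in the line difference at 0 h to -0.45.

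By class, 5 members were responsive in the Tbc1d23 line (called at any LPS time), beside 9.60% of all names, and 24 in the CAT line, beside 47.9%. With the replicate block 12 were responsive in the Tbc1d23 line, and the share of names with that block is not given. Constant members, not called at any time and with every 95% confidence interval of the response between -1 and 1, numbered 22 in the Tbc1d23 line (59.8% of names were constant) and 7 in the CAT line (26.5%). These counts depend on the processing: they were 2 with median scaling and 35 with normexp background in the Tbc1d23 line, and 14 with normexp background in the CAT line. Those constant in both lines were Trim3, Trim8, Trim23, Trim39, Trim41, Trim44 and Trim54, 7 members beside 24.8% of names. Neither class could be given in either line to Trim7, Trim46, Trim55, Trim62, Trim63 and Trim67, which had wide intervals.

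**Figure D1:**
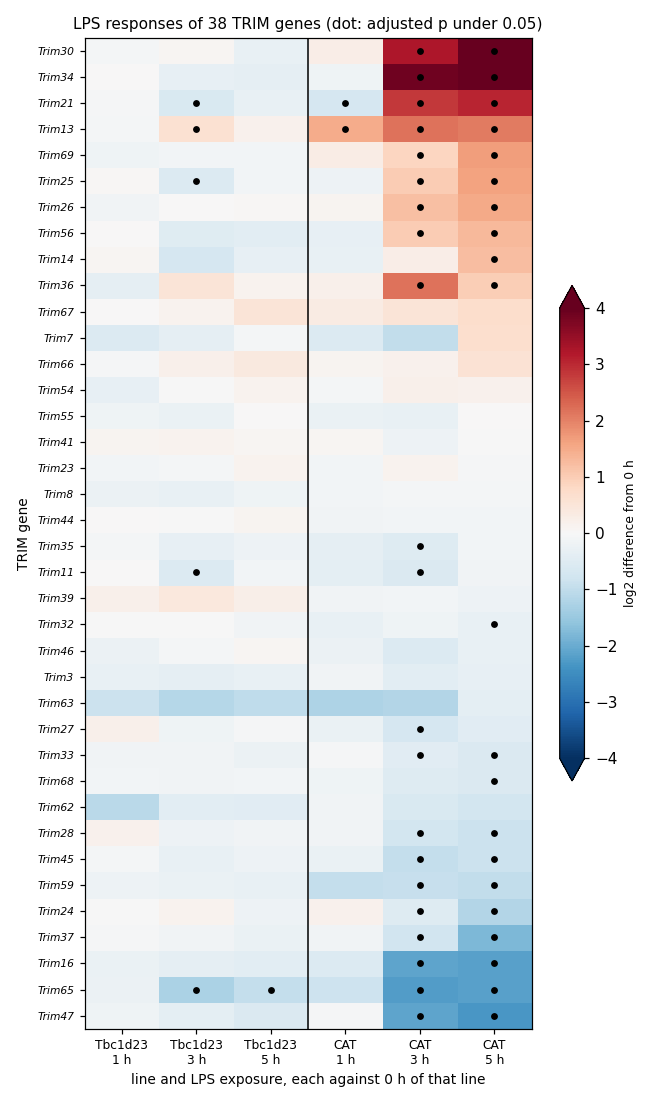
Log2 response to LPS of the 38 TRIM genes (rows, sorted by the CAT response at 5 h) in the Tbc1d23 line (left 3 columns) and the CAT line (right 3 columns) at 1, 3 and 5 h, each against 0 h of that line; colours end at -4 and 4, and a dot marks an adjusted p under 0.05. Dots number 6 in the Tbc1d23 columns and 44 in the CAT columns.

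The response itself differed between the lines for 17 members at 1 or more times, beside 26.9% of all names (limma interaction, the LPS response of the Tbc1d23 line minus that of the CAT line). The 17 include Trim34 and Trim69, which passed the filter only through groups of 1 line, where they are high. Their calls, here and in the counts that follow, are descriptions. At 1 h 0 were higher and 1 lower, against 0.628% and 1.76% of names, or 2 and 1 with the replicate block. At 3 h 4 were higher and 8 lower, against 8.24% and 8.36%, or 10 and 9 with the replicate block. At 5 h 7 were higher and 9 lower, against 12.6% and 10.6%. These percentages are from the fit without a block. With median scaling 2 were higher and 3 lower at 3 h and 3 and 5 at 5 h. Of all names 734 were then higher and 382 lower at 3 h, and 785 and 584 at 5 h. Of the 29 calls, 29 kept their sign and 20 their call within the slide run that holds both lines, where the Tbc1d23 line has 1 slide.

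Most interferon-linked TRIM genes rose with LPS in the CAT line, and of these only Trim13 was called higher in the Tbc1d23 line. Trim30, known in mouse to restrain TLR signalling by promoting the loss of the kinase adaptors TAB2 and TAB3, had levels of 1.03, 1.25 and 1.22 at 0 h, 1.0, 1.14 and 1.15 at 1 h, 1.08, 1.26 and 1.42 at 3 h and 0.72, 0.84 and 1.09 at 5 h in the Tbc1d23 line (probe at chr7:111557578-111557637, mm9). Trim30 levels in CAT cells were 0.49, 0.90 and 1.09 at 0 h, 1.37, 1.14 and 0.73 at 1 h, 4.31, 4.27 and 3.59 at 3 h and 5.36, 5.60 and 5.56 at 5 h. All 3 CAT arrays at 3 and 5 h lay above every Tbc1d23 array. The LPS response was -0.28 ± 0.19 at 5 h in the Tbc1d23 line (adjusted p = 0.624) and 4.68 ± 0.19 in the CAT line (25.6-fold, adjusted p = 4.49e-13). The difference of responses was -4.96 ± 0.27 (adjusted p = 1.57e-10), and -4.81 within the slide run with both lines. Its other kept probe gave -4.37.

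Trim34, an interferon-inducible relative of Trim5 and Trim6, was dim by its brightest probe (probe at chr7:111410060-111410119). Its levels in the Tbc1d23 line were -3.14, -5.0 and -4.19 at 0 h, -3.93, -4.56 and -3.80 at 1 h, -3.98, -5.70 and -3.59 at 3 h and -3.69, -6.09 and -3.65 at 5 h, of which 1, 1, 1 and 2 arrays of 3 were well above background. Trim34 levels in CAT cells were -4.42, -4.38 and -6.25 at 0 h, -5.61, -4.82 and -5.10 at 1 h, -1.37, -1.11 and -0.87 at 3 h and -1.05, -0.83 and -0.80 at 5 h, with 0 arrays well above background at 0 and 1 h and 3 at 3 and 5 h. By this probe the CAT response is a lower bound. It is at least 10.9-fold higher at 3 h and at least 12.7-fold at 5 h. The probe passed the filter only through the CAT groups at 3 and 5 h, where it is high, so this rise is a description. For the same reason the line difference is a description: at 5 h the Tbc1d23 line was lower, by -3.58 ± 0.65 or -2.75 within the slide run with both lines. The fitted difference of responses, -4.49 ± 0.92 at 5 h, rests on CAT arrays at background and is no bound. The probes disagree in size: a second, well above background on 5 of the 6 CAT arrays at 0 and 1 h, gave a CAT response of 1.17 at 3 h (adjusted p = 0.0707) and 1.48 at 5 h (adjusted p = 0.0187). Its difference of responses was -2.04 at 5 h (adjusted p = 0.0384). The other, on 0 of those 6 arrays, gave a CAT response of 4.33 at 5 h.

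Trim21, the cytosolic receptor for antibody-coated particles, had levels of -1.63, -1.50 and -1.16 at 0 h, -1.52, -1.58 and -1.36 at 1 h, -2.31, -2.06 and -1.75 at 3 h and -1.81, -1.82 and -1.52 at 5 h in the Tbc1d23 line (probe at chr7:109706597-109706656). Trim21 levels in CAT cells were -0.97, -1.04 and -0.80 at 0 h, -1.63, -1.64 and -1.53 at 1 h, 1.92, 1.93 and 1.84 at 3 h and 2.11, 2.06 and 2.20 at 5 h. Opposite changes of Trim21 were called at 3 h: it fell in the Tbc1d23 line (-0.61 ± 0.14, adjusted p = 0.00802) and rose in the CAT line (2.84 ± 0.14, 7.14-fold, adjusted p = 4.51e-12). The Tbc1d23 fall was -0.06 and not called with median scaling (adjusted p = 0.9), and it lost its call without Tbc1d23 replicate 1 at 3 h or replicate 3 at 0 h. In CAT cells Trim21 first fell, by 0.66 at 1 h (adjusted p = 0.00297). The difference of responses was -3.44 ± 0.19 at 3 h (adjusted p = 2.92e-10), or -3.42 within the slide run with both lines.

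Trim13, an endoplasmic reticulum ligase of the degradation of misfolded proteins, was the earliest of the family to rise (probe at chr14:62224541-62224600). In Tbc1d23 cells it had levels of 0.15, 0.35 and 0.28 at 0 h, 0.13, 0.24 and 0.17 at 1 h, 0.82, 0.90 and 0.91 at 3 h and 0.45, 0.40 and 0.44 at 5 h. In CAT cells the levels were -0.15, -0.01 and 0.01 at 0 h, 1.44, 1.38 and 1.46 at 1 h, 2.26, 2.03 and 2.10 at 3 h and 2.03, 1.99 and 2.02 at 5 h. Already at 1 h all 3 CAT arrays lay above all 3 of the Tbc1d23 line. The CAT response was 1.48 ± 0.08 at 1 h (2.79-fold, adjusted p = 7.03e-11) and 2.18 ± 0.08 at 3 h, and Tbc1d23 cells showed 0.62 ± 0.08 at 3 h (adjusted p = 2.81e-05). Responses differed by -1.56 ± 0.11 at 1 h (adjusted p = 2.81e-08) and -1.90 ± 0.11 at 5 h (adjusted p = 3.49e-10), and the 1 h difference was -1.58 within the run with both lines. Before LPS the Tbc1d23 line was slightly higher (0.31 ± 0.08, adjusted p = 0.0037), a direction that median scaling turned to -0.23.

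Trim25, the ligase that modifies the RNA sensor RIG-I, had levels of 3.71, 3.75 and 3.63 at 0 h, 3.80, 3.91 and 3.50 at 1 h, 3.19, 3.22 and 3.03 at 3 h and 3.60, 3.91 and 3.23 at 5 h in the Tbc1d23 line (probe at chr11:88881205-88881264). Its levels in the CAT line were 3.60, 3.17 and 3.41 at 0 h, 3.22, 3.06 and 3.31 at 1 h, 4.35, 4.30 and 4.54 at 3 h and 5.11, 4.92 and 5.0 at 5 h. Here too the groups of the lines do not overlap at 3 and 5 h. LPS raised it in CAT cells by 1.0 ± 0.15 at 3 h and 1.61 ± 0.15 at 5 h (3.06-fold, adjusted p = 4.81e-08), and its other probe rose by 2.99 at 5 h. The fall in Tbc1d23 cells at 3 h (-0.55 ± 0.15, adjusted p = 0.034) was not seen with the other probe (-0.01, not called) or with median scaling (0.003). Responses differed by -1.73 ± 0.21 at 5 h (adjusted p = 5.37e-06).

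**Figure D2:**
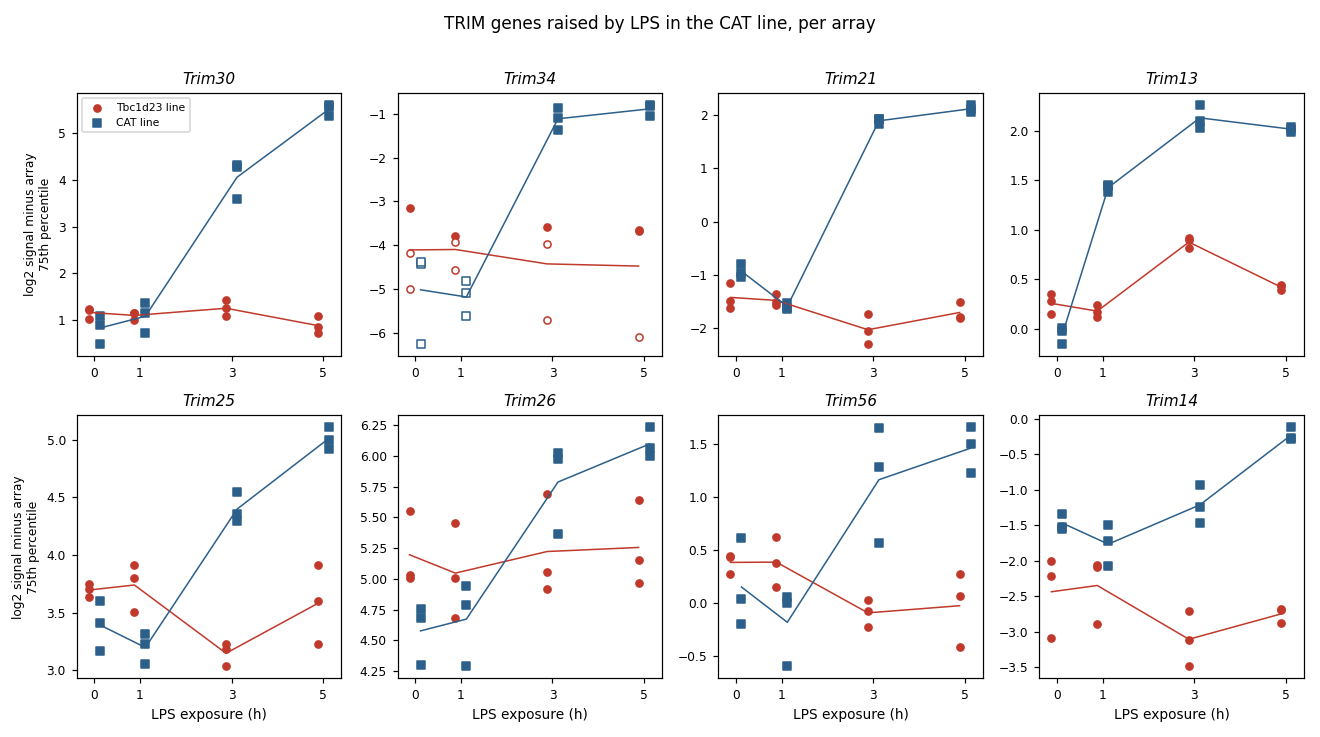
Levels (log2 signal minus the array's 75th percentile) of 8 TRIM genes on each array against hours of LPS, for the Tbc1d23 line (circles) and the CAT line (squares); lines join group means, open symbols are arrays on which the probe is not well above background, and axes differ between panels. In each of the 8 panels the 3 CAT arrays at 5 h lie above every Tbc1d23 array.

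Trim26, Trim56 and Trim14, which are implicated in antiviral signalling, rose in the CAT line at 5 h and were not called in the Tbc1d23 line, except that the replicate block called Trim14 lower there at 3 h (-0.67, adjusted p = 0.00913). Trim26 had levels of 5.01, 5.03 and 5.55 at 0 h, 4.68, 5.01 and 5.46 at 1 h, 4.92, 5.06 and 5.69 at 3 h and 4.97, 5.16 and 5.64 at 5 h in the Tbc1d23 line. Trim26 levels in CAT cells were 4.30, 4.75 and 4.68 at 0 h, 4.79, 4.94 and 4.29 at 1 h, 5.97, 6.02 and 5.37 at 3 h and 6.0, 6.23 and 6.06 at 5 h. Its response at 5 h was 0.06 ± 0.26 in the Tbc1d23 line and 1.52 ± 0.26 in the CAT line (adjusted p = 8.28e-05), with a difference of -1.46 ± 0.37 (adjusted p = 0.00594). At 5 h the level difference between the lines (-0.84 ± 0.26, adjusted p = 0.0105) was -0.44 with a slide run term in the fit and -0.46 within the run with both lines, neither called (adjusted p = 0.0694 and 0.263). The level of Trim26 in Tbc1d23 replicate 3 was above that of replicates 1 and 2 at all 4 times.

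Trim56 had levels of 0.43, 0.27 and 0.44 at 0 h, 0.62, 0.15 and 0.38 at 1 h, 0.03, -0.08 and -0.23 at 3 h and 0.27, -0.42 and 0.06 at 5 h in the Tbc1d23 line. Trim56 levels in CAT cells were 0.61, 0.04 and -0.20 at 0 h, -0.60, 0.05 and -0.0049 at 1 h, 0.56, 1.28 and 1.64 at 3 h and 1.22, 1.49 and 1.65 at 5 h. At 5 h the CAT arrays all lay above the Tbc1d23 arrays. LPS raised it in the CAT line by 1.01 ± 0.26 at 3 h (adjusted p = 0.00446) and 1.31 ± 0.26 at 5 h (adjusted p = 3.94e-04), and the responses differed by -1.72 ± 0.37 at 5 h (adjusted p = 0.00161; -1.69, adjusted p = 0.0891, within the run with both lines). Trim14, which lacks a RING finger and binds the mitochondrial adaptor MAVS, had levels of -2.22, -3.09 and -2.0 at 0 h, -2.07, -2.89 and -2.09 at 1 h, -3.11, -3.49 and -2.71 at 3 h and -2.69, -2.87 and -2.69 at 5 h in the Tbc1d23 line. Trim14 levels in CAT cells were -1.52, -1.55 and -1.34 at 0 h, -2.08, -1.72 and -1.50 at 1 h, -1.47, -1.24 and -0.93 at 3 h and -0.12, -0.29 and -0.27 at 5 h. The Tbc1d23 line had less Trim14 already before LPS (-0.97 ± 0.26, adjusted p = 0.00589), but within the run with both lines that difference was -0.53 (adjusted p = 0.112). At 5 h the difference was -2.52 ± 0.26 (adjusted p = 2.06e-07), the CAT response 1.24 ± 0.26 (adjusted p = 7.53e-04) and the difference of responses -1.56 ± 0.37 (adjusted p = 0.00418).

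Trim36 and Trim69 also rose in the CAT line but differed between the lines before LPS. Trim36, which binds microtubules, had levels of -3.29, -4.50 and -3.45 at 0 h, -3.72, -3.82 and -4.74 at 1 h, -3.02, -3.37 and -3.27 at 3 h and -3.62, -3.59 and -3.62 at 5 h in the Tbc1d23 line. Trim36 levels in CAT cells were -2.06, -1.21 and -1.23 at 0 h, -1.06, -1.35 and -1.47 at 1 h, 0.81, 0.79 and 0.38 at 3 h and -0.61, -0.37 and -0.53 at 5 h. All CAT arrays lay above all Tbc1d23 arrays at each of the 4 times. Its CAT response at 3 h was called (2.16 ± 0.30, adjusted p = 8.81e-06) and was 1.0 ± 0.30 at 5 h (adjusted p = 0.0103), and the difference of responses at 3 h was -1.63 ± 0.42 (adjusted p = 0.0097). Trim69 ran the other way: its levels were -1.86, -3.07 and -2.54 at 0 h, -2.76, -2.72 and -2.51 at 1 h, -2.57, -2.71 and -2.49 at 3 h and -2.52, -2.70 and -2.54 at 5 h in the Tbc1d23 line. Trim69 levels in CAT cells were -5.95, -4.93 and -5.90 at 0 h, -5.27, -5.22 and -5.45 at 1 h, -4.42, -4.91 and -4.85 at 3 h and -3.97, -4.14 and -3.66 at 5 h. On CAT arrays it was well above background on 0 of 3 at 0, 1 and 3 h and on 1 of 3 at 5 h. Its CAT rise is thus a bound, at least 1.7-fold at 5 h. The limma adjusted p of 3.42e-05 belongs to the fitted difference, which rests on 0 h arrays not well above background, and not to this bound. The call at 3 h (0.87) compares arrays below background on both sides and gives no fold.

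The list of interferon-linked TRIM genes, chosen with earlier results of these data known, held 13 tested genes. In the Tbc1d23 line 1 of the 13 rose and 3 fell at 3 h (median -0.32), where 3.49% of all names rose and 3.30% fell. At 5 h in that line 0 rose and 1 fell (median -0.28), where 3.02% of all names rose and 3.32% fell. Of the same 13, 8 rose and 2 fell at 3 h in the CAT line (median 1.01, all names -0.02, of which 16.1% rose and 18.7% fell). At 5 h 10 rose and 1 fell (median 1.61, all names 0.01, of which 18.3% rose and 23.4% fell). The risen include Trim34, which passed the filter only through those CAT groups. The difference of responses was lower in 9 and higher in 0 at 3 h, against 8.36% and 8.24% of all names. At 5 h it was lower in 10 and higher in 1, Trim65, against 10.6% and 12.6%. Those lower at 5 h include Trim34 as well. Trim65, which modifies the RNA sensor MDA5, is the listed gene that fell at both times. The 13 include genes the array lists under other names: Trim30d rose by 4.82 ± 0.58 at 5 h in the CAT line (adjusted p = 1.39e-06) and Trim12c by 2.54 ± 0.37 (adjusted p = 1.54e-05). Their Tbc1d23 responses were -0.32 ± 0.58 and -0.42 ± 0.37, neither called. Genes of this cluster on chromosome 7 are near-identical copies in part, and whether a probe also binds a neighbour's transcript was not tested. In the same stretch of chromosome 7 (mm9) the Trim21, Trim68, Trim34, Trim30 and Trim3 probes lie between 109706597 and 112759281. Trim68 and Trim3 did not rise with the others: their CAT responses at 5 h were -0.58 ± 0.21 (adjusted p = 0.0341) and -0.31 ± 0.16 (adjusted p = 0.136).

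A group of TRIM genes fell in the CAT line by 3 to 5 h and, apart from Trim11 and Trim65, was not called in the Tbc1d23 line by the fit without a block. With the replicate block Trim16 was called lower in the Tbc1d23 line at 3 and 5 h (adjusted p = 0.0366 and 0.0173), as were Trim35 and Trim45 at 3 h, Trim37 at 5 h and Trim59 at both. Trim16, which lacks a RING finger and acts in autophagy of damaged endomembranes, had levels of 2.90, 3.23 and 3.28 at 0 h, 2.72, 2.85 and 3.01 at 1 h, 2.53, 2.65 and 3.12 at 3 h and 2.50, 2.62 and 2.99 at 5 h in the Tbc1d23 line (probe at chr11:62654736-62654795). Trim16 levels in CAT cells were 1.42, 2.07 and 2.09 at 0 h, 1.14, 1.49 and 1.31 at 1 h, -0.36, -0.03 and -0.38 at 3 h and -0.40, -0.27 and -0.24 at 5 h. At each time all 3 Tbc1d23 arrays lay above all 3 CAT arrays. LPS lowered it in the CAT line by 2.17 ± 0.19 at 5 h (4.49-fold, adjusted p = 2.05e-08), against -0.43 ± 0.19 in the Tbc1d23 line (adjusted p = 0.276). Responses differed by 1.75 ± 0.27 at 3 h (adjusted p = 9.49e-05), and the line difference was 3.01 ± 0.19 at 5 h, beside 1.27 ± 0.19 at 0 h. Its other probes fell in the CAT line too (-2.03 and -2.43 at 5 h), but 1 of them also fell in the Tbc1d23 line (-0.69, adjusted p = 0.0234).

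Trim47 levels were -0.60, -0.63 and -0.45 at 0 h, -0.75, -0.81 and -0.66 at 1 h, -1.0, -1.18 and -0.65 at 3 h and -1.06, -1.43 and -0.90 at 5 h in the Tbc1d23 line (probe at chr11:115967127-115967186). Trim47 levels in CAT cells were 0.96, 2.03 and 1.80 at 0 h, 1.23, 1.86 and 1.58 at 1 h, -0.46, -0.45 and -0.65 at 3 h and -0.54, -0.70 and -0.92 at 5 h. Before LPS and at 1 h the lines were apart, and at 3 and 5 h their arrays overlapped. The CAT response was -2.32 ± 0.22 at 5 h (4.98-fold lower, adjusted p = 7.13e-08) and the Tbc1d23 response -0.57 ± 0.22 (adjusted p = 0.184), a difference of 1.74 ± 0.32 (adjusted p = 3.59e-04). Trim65, whose probe lies close by on chromosome 11 (chr11:115983892-115983951), had levels of -2.08, -2.63 and -1.99 at 0 h, -2.41, -2.78 and -2.25 at 1 h, -3.62, -3.47 and -3.37 at 3 h and -3.48, -2.81 and -3.23 at 5 h in the Tbc1d23 line. Trim65 levels in CAT cells were -0.57, -0.56 and -0.51 at 0 h, -1.50, -1.54 and -1.12 at 1 h, -2.79, -3.18 and -2.37 at 3 h and -2.63, -3.36 and -2.15 at 5 h. At 3 h it fell by 1.25 ± 0.27 in the Tbc1d23 line (adjusted p = 0.0055) and by 2.23 ± 0.27 in the CAT line (adjusted p = 1.71e-06). The Tbc1d23 fall of Trim65 at 3 h was -0.70 with median scaling (adjusted p = 0.257) and -1.38 within the run with both lines (adjusted p = 0.265), neither called. No other member was called lower in both lines at both times. At 5 h the responses differed by 1.23 ± 0.38 (adjusted p = 0.0234; 0.93, adjusted p = 0.353, within the run with both lines). Its 5 h call in the Tbc1d23 line (adjusted p = 0.0423) was lost without any of 15 arrays.

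Trim37, a ligase linked in humans to mulibrey nanism, had levels of 0.95, 1.36 and 0.90 at 0 h, 1.01, 1.26 and 0.78 at 1 h, 0.90, 1.05 and 0.83 at 3 h and 0.80, 1.06 and 0.55 at 5 h in the Tbc1d23 line. Trim37 levels in CAT cells were 1.65, 1.39 and 1.65 at 0 h, 1.41, 1.30 and 1.58 at 1 h, 0.88, 0.57 and 0.97 at 3 h and -0.07, -0.45 and -0.21 at 5 h. By its brightest probe the order of the lines turned over the course: the difference was -0.49 ± 0.17 at 0 h (adjusted p = 0.021) and 1.05 ± 0.17 at 5 h (adjusted p = 3.16e-05). The 0 h call was lost without Tbc1d23 replicate 1 or 3 or CAT replicate 1 or 3 at 0 h (limma adjusted p = 0.0691 to 0.0829). The CAT response of Trim37 was -1.81 ± 0.17 at 5 h (adjusted p = 3.41e-08), and the responses differed by 1.54 ± 0.23 (adjusted p = 5.65e-05). Trim45 levels were -0.26, -0.42 and -0.28 at 0 h, -0.31, -0.49 and -0.37 at 1 h, -0.61, -0.57 and -0.67 at 3 h and -0.66, -0.45 and -0.47 at 5 h in the Tbc1d23 line. Trim45 levels in CAT cells were -0.17, -0.39 and -0.41 at 0 h, -0.51, -0.74 and -0.53 at 1 h, -1.15, -1.38 and -1.31 at 3 h and -1.01, -1.32 and -1.25 at 5 h. The responses of Trim45 differed by 0.66 ± 0.15 at 3 h (adjusted p = 0.00393), but its other probe gave the opposite sign (-0.59, adjusted p = 0.704), so the direction depends on the probe.

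The chromatin cofactors of the TIF1 group, which carry a PHD finger and a bromodomain, had 0 of 4 members called in the Tbc1d23 line. In the CAT line 3 of 4 fell at 3 and 5 h, where 18.7% and 23.4% of all names fell. The 3 h call of Trim33 was lost without CAT replicate 2 or 3 at 0 h or replicate 3 at 3 h (difference -0.42 to -0.29, against -0.45 with all arrays), and that of Trim24 without CAT replicate 3 at 3 h. The chosen probe of the other, Trim66, was not well above background on any CAT array. Trim24, a cofactor of nuclear receptors, had levels of 2.66, 2.88 and 2.76 at 0 h, 2.62, 2.79 and 2.83 at 1 h, 2.83, 2.89 and 3.03 at 3 h and 2.51, 2.40 and 2.76 at 5 h in the Tbc1d23 line. Trim24 levels in CAT cells were 1.94, 2.30 and 2.37 at 0 h, 2.52, 2.45 and 2.18 at 1 h, 1.98, 1.66 and 1.42 at 3 h and 1.04, 1.0 and 1.02 at 5 h. At all 4 times the Tbc1d23 arrays lay above the CAT arrays. Its CAT response was -1.18 ± 0.14 at 5 h (adjusted p = 1.47e-06), and the difference of responses 0.97 ± 0.20 (adjusted p = 0.00135). Its other probe fell in the CAT line at 5 h as well (-1.35) but did not give the line difference at 0 h (-0.09). Trim28, the corepressor of KRAB zinc finger proteins, fell by 0.85 ± 0.17 in the CAT line at 5 h (adjusted p = 3.58e-04), with a difference of responses of 0.71 ± 0.24 (adjusted p = 0.0354). Trim33, a regulator of SMAD signalling, fell by 0.58 ± 0.14 (adjusted p = 0.00252), and its responses were not called different (0.35 ± 0.20, adjusted p = 0.252).

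**Figure D3:**
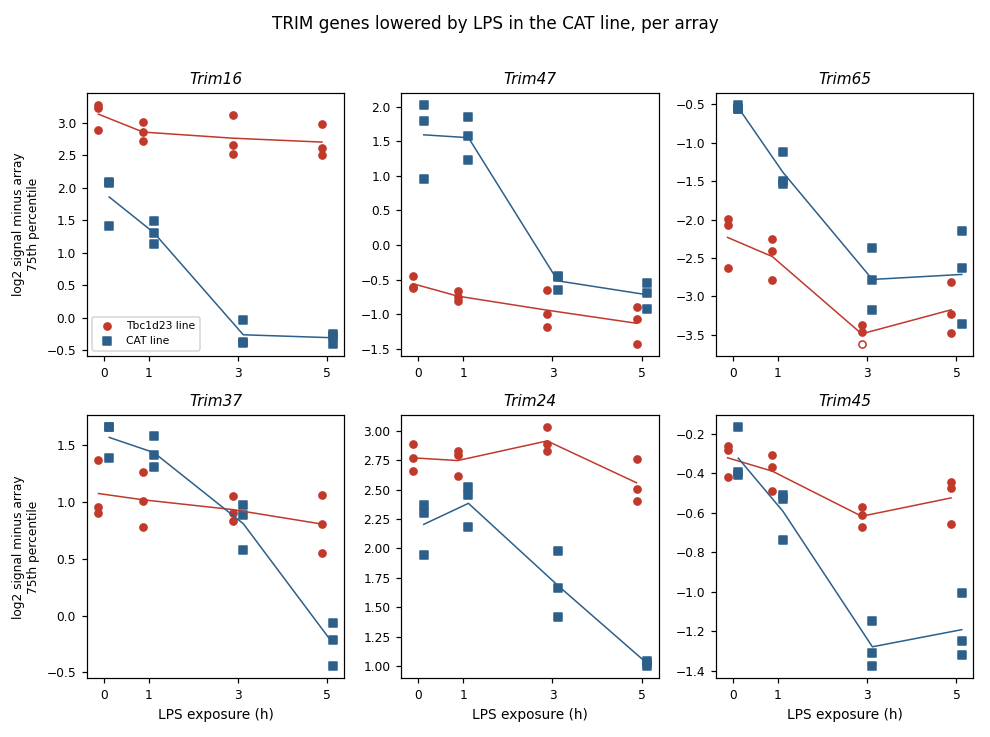
Levels (log2 signal minus the array's 75th percentile) on each array of 6 TRIM genes that fell in the CAT line, against hours of LPS, for the Tbc1d23 line (circles) and the CAT line (squares); lines join group means, an open symbol is an array on which the probe is not well above background, and axes differ between panels. Trim65 fell in both lines, and Trim47 arrays of the lines overlap at 3 and 5 h.

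By C-terminal structure, the PRY-SPRY members, whose domain binds substrates, included members called in both directions: of 18 tested, 0 rose and 4 fell at 3 h and 0 rose and 1 fell at 5 h in the Tbc1d23 line (all names 3.49% and 3.30% at 3 h, 3.02% and 3.32% at 5 h). Of the same 18, 6 rose and 6 fell at 3 h in the CAT line (all names 16.1% and 18.7%), and 7 rose and 4 fell at 5 h (18.3% and 23.4%). Of 6 COS-box members, which bind microtubules or the sarcomere, 1 rose (Trim36) and 0 fell at 3 and 5 h in the CAT line. Of 4 members grouped with the NHL-repeat proteins (Trim3, Trim32, Trim45 and Trim56), 1 rose and 1 fell at 3 h and 1 rose and 2 fell at 5 h. Smaller CAT falls at 3 h were those of Trim11 (-0.58 ± 0.15), Trim27 (-0.66 ± 0.20), Trim35 (-0.52 ± 0.11) and Trim59 (-0.94 ± 0.33; -0.98 ± 0.33 at 5 h), and at 5 h those of Trim32 (-0.28 ± 0.10) and Trim68, with adjusted p-values of 9.19e-04 to 0.0351. Trim11 also fell in the Tbc1d23 line at 3 h (-0.53 ± 0.15, adjusted p = 0.0317), a difference of responses of 0.05 ± 0.21.

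Before LPS and after it, levels of TRIM genes differed between the lines in both directions. At 0 h 9 members were higher and 10 lower in the Tbc1d23 line, against 25.1% and 20.2% of all names. At 1 h it was 10 and 9, against 24.6% and 21.2%. At 3 h it was 9 and 12, against 27.4% and 23.7%, and at 5 h 11 and 12, against 30.1% and 23.5%. Under median scaling the split was 2 higher and 11 lower before LPS and 6 and 11 at 5 h. Of all names 879 were then higher and 3869 lower before LPS, and 1832 and 2943 at 5 h. With quantile normalization the split at 1 h was 7 and 10 (all names 3514 and 3535), and in the authors' deposited values 6 and 10 (3339 and 3667). At each of the 4 times 7 members were called higher (Trim16, Trim24, Trim32, Trim33, Trim55, Trim66 and Trim69), beside 14.6% of names. Another 3 were called lower (Trim36, Trim44 and Trim67), beside 10.5%. Trim66, Trim69 and Trim67 passed the filter only through the line where they are high. Their calls, here and in the counts at each time, are thus no tests. Trim34 passed only through the CAT groups at 3 and 5 h, where it is high. Its line differences at those times are likewise no tests. Of 82 calls over the 4 times, 82 kept their sign and 70 their call with a slide run term in the fit, and 82 kept their sign and 59 their call inside the shared slide run.

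Trim66, a TIF1 member known from mouse testis, and Trim69 passed the filter only through Tbc1d23 groups, so their line differences are descriptions and are given without a test. Trim66 levels were -2.99, -3.60 and -3.15 at 0 h, -3.42, -3.23 and -3.18 at 1 h, -3.08, -3.23 and -2.87 at 3 h and -2.70, -3.29 and -2.61 at 5 h in the Tbc1d23 line, with 11 of 12 arrays well above background. Trim66 levels in CAT cells were -6.80, -6.38 and -6.96 at 0 h, -6.69, -6.79 and -6.31 at 1 h, -6.24, -6.43 and -6.93 at 3 h and -6.29, -6.39 and -5.69 at 5 h, with 0 of 12 arrays well above background. It was at least 2.73-fold higher at 0 h, 2.95-fold at 1 h, 2.69-fold at 3 h and 3.05-fold at 5 h. Another Trim66 probe, which did not pass the filter, was well above background on 8 Tbc1d23 and 4 CAT arrays and averaged -3.54 in Tbc1d23 cells and -4.55 in CAT cells. The absence from CAT arrays thus holds for the chosen probe alone. Trim69 was at least 4.61-fold higher at 0 h, 4.52-fold at 1 h and 3.7-fold at 3 h, and its 5 h difference was 1.34 ± 0.26 with 1 of 3 CAT arrays well above background. Trim33 levels were 5.22, 5.46 and 5.36 at 0 h, 5.07, 5.33 and 5.18 at 1 h, 5.12, 5.20 and 5.28 at 3 h and 5.13, 5.04 and 5.17 at 5 h in the Tbc1d23 line. Trim33 levels in CAT cells were 4.0, 4.38 and 4.30 at 0 h, 4.24, 4.35 and 3.91 at 1 h, 4.03, 3.85 and 3.44 at 3 h and 3.59, 3.73 and 3.60 at 5 h. At each time all Tbc1d23 arrays lay above all CAT arrays, with a difference of 1.12 ± 0.14 at 0 h (adjusted p = 3.98e-06) and 1.13 within the run with both lines. Trim32, mutated in a human limb girdle dystrophy, differed by 0.45 ± 0.10 at 0 h (adjusted p = 0.00129). Its dimmer probe ran the other way on average, at -4.35 in Tbc1d23 cells and -3.87 in CAT cells. That probe was well above background on 5 Tbc1d23 and 10 CAT arrays, so the direction holds for the chosen probe alone.

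Trim55, a muscle RING finger protein of the sarcomere, was higher by far more on some Tbc1d23 slides than on another. Its levels were -0.15, -0.39 and -2.51 at 0 h, -0.38, -0.61 and -2.55 at 1 h, -0.30, -0.36 and -3.18 at 3 h and 0.21, -0.79 and -2.45 at 5 h in the Tbc1d23 line. Trim55 levels in CAT cells were -3.75, -3.0 and -3.37 at 0 h, -4.17, -3.24 and -3.47 at 1 h, -4.70, -3.31 and -3.01 at 3 h and -3.58, -2.92 and -3.55 at 5 h. Replicate 3 of the Tbc1d23 line lies closer to the CAT arrays than replicates 1 and 2 at every time. It lies above all 3 CAT arrays at 0, 1 and 5 h and among them at 3 h, and replicates 1 and 2 lie further above. The difference of 2.36 ± 0.82 at 0 h (adjusted p = 0.0251) was 0.81 with a slide run term in the fit and 0.87 within the run with both lines, neither called (adjusted p = 0.12 and 0.292), and the same held at the other times. For Trim67, known from mouse neurons, the 0 h difference of -1.37 ± 0.49 was -1.01 with the block and -0.46 within that run. Its levels were -4.13, -5.28 and -3.35 at 0 h, -5.19, -3.88 and -3.60 at 1 h, -3.89, -3.94 and -4.54 at 3 h and -4.75, -3.06 and -3.39 at 5 h in the Tbc1d23 line, with 5 of 12 arrays well above background. Trim67 levels in CAT cells were -3.29, -3.09 and -2.28 at 0 h, -2.85, -2.15 and -2.70 at 1 h, -2.62, -2.11 and -2.39 at 3 h and -2.50, -1.96 and -2.04 at 5 h, with 12 of 12. At 3 h, with 0 of 3 Tbc1d23 arrays well above background, it was at least 3.36-fold lower. Trim67 passed the filter only through CAT groups, so its line differences are descriptions.

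**Figure D4:**
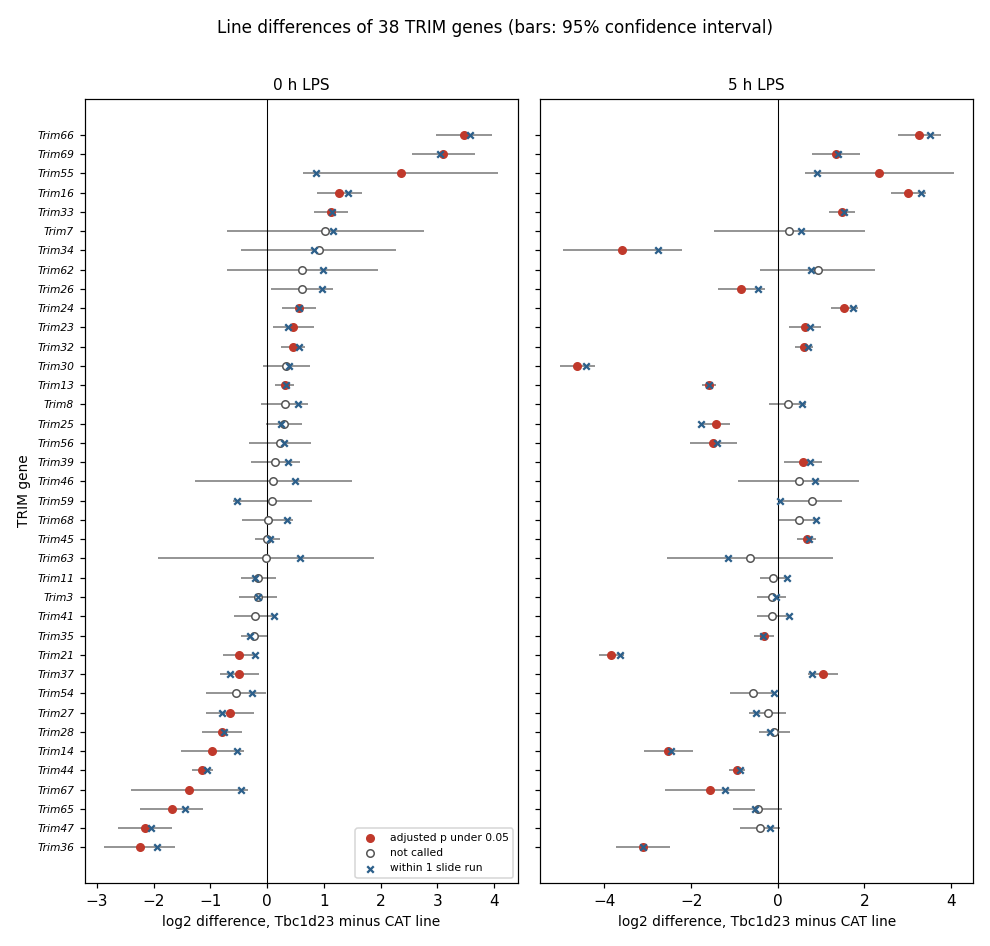
Log2 difference between the lines (Tbc1d23 minus CAT) of the 38 TRIM genes at 0 h (left) and after 5 h of LPS (right), with 95% confidence intervals; filled points are called, open points are not, and crosses give the value within the slide run that holds both lines. Trim55 has its cross far below its point, and at 5 h Trim30, Trim21 and Trim34 are the lowest points.

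For the constant genes the intervals of all 6 LPS responses lay within 1 log2 unit of 0. Trim8, a ligase that acts on the kinase TAK1, had levels of 4.01, 4.23 and 4.47 at 0 h, 3.79, 4.0 and 4.22 at 1 h, 3.69, 3.88 and 4.23 at 3 h and 3.71, 4.08 and 4.41 at 5 h in the Tbc1d23 line. Trim8 levels in CAT cells were 3.71, 4.07 and 4.0 at 0 h, 3.98, 3.96 and 3.56 at 1 h, 4.09, 3.99 and 3.50 at 3 h and 3.92, 3.82 and 3.80 at 5 h. The groups overlap at every time, and the responses at 5 h were -0.17 ± 0.20 and -0.09 ± 0.20 (95% confidence intervals -0.59 to 0.25 and -0.51 to 0.33). These values are from the brightest probe. The dimmer Trim8 probe, well above background on all 24 arrays, averaged -1.26 in Tbc1d23 cells and -0.53 in CAT cells. Trim3, an NHL-repeat protein, had levels of -0.19, -0.61 and -0.40 at 0 h, -0.82, -0.62 and -0.62 at 1 h, -0.87, -0.75 and -0.67 at 3 h and -0.88, -0.60 and -0.58 at 5 h in the Tbc1d23 line. Trim3 levels in CAT cells were -0.26, -0.48 and 0.03 at 0 h, -0.22, -0.54 and -0.32 at 1 h, -0.69, -0.80 and -0.45 at 3 h and -0.58, -0.82 and -0.25 at 5 h. Its largest response was -0.41 ± 0.16 in the CAT line at 3 h (adjusted p = 0.0539), which the slide run block called (adjusted p = 0.044), and the replicate block also called its Tbc1d23 response at 3 h (-0.36, adjusted p = 0.0407). Trim39, an inhibitor of the anaphase-promoting complex, had levels of -1.04, -0.77 and -0.57 at 0 h, -0.01, -1.05 and -0.75 at 1 h, -0.71, -0.22 and -0.20 at 3 h and -0.73, -0.58 and -0.40 at 5 h in the Tbc1d23 line. Trim39 levels in CAT cells were -1.12, -0.94 and -0.76 at 0 h, -1.08, -0.95 and -1.22 at 1 h, -0.89, -1.07 and -1.18 at 3 h and -1.24, -1.12 and -1.10 at 5 h. The higher level called in Tbc1d23 cells at 3 h (0.67 ± 0.21, adjusted p = 0.0115) turned to -0.81 and -0.09 with other probes.

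Trim41 and Trim44 were constant by their brightest probe. Trim41 levels were 0.83, 0.83 and 1.33 at 0 h, 0.95, 0.96 and 1.43 at 1 h, 1.0, 1.02 and 1.41 at 3 h and 0.89, 0.86 and 1.47 at 5 h in the Tbc1d23 line. Trim41 levels in CAT cells were 1.28, 1.16 and 1.20 at 0 h, 1.30, 1.21 and 1.33 at 1 h, 1.02, 0.96 and 1.07 at 3 h and 1.30, 1.12 and 1.18 at 5 h. Its dimmer probe, however, fell in the CAT line by 1.09 at 1 h and 0.71 at 5 h (adjusted p = 1.66e-04 and 0.00199). Trim44, which lacks a RING finger, had levels of -0.63, -0.40 and -0.38 at 0 h, -0.56, -0.48 and -0.29 at 1 h, -0.59, -0.44 and -0.43 at 3 h and -0.48, -0.29 and -0.31 at 5 h in the Tbc1d23 line. Trim44 levels in CAT cells were 0.70, 0.66 and 0.68 at 0 h, 0.55, 0.50 and 0.53 at 1 h, 0.61, 0.54 and 0.61 at 3 h and 0.57, 0.55 and 0.59 at 5 h. The lines do not overlap, with a difference of -1.15 ± 0.09 at 0 h (adjusted p = 5.88e-09; -1.06 within the run with both lines). Its dimmer probe ran the other way (0.53 at 0 h, adjusted p = 0.00781) and rose in the CAT line at 5 h (0.55, adjusted p = 0.00656), and neither the line difference nor the constancy of Trim44 holds for both probes. Of the other constant members, Trim23, an ARF-domain protein that modifies NEMO, responded by -0.04 ± 0.17 and Trim54, a muscle RING finger protein, by 0.18 ± 0.25 at 5 h in the CAT line.

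**Figure D5:**
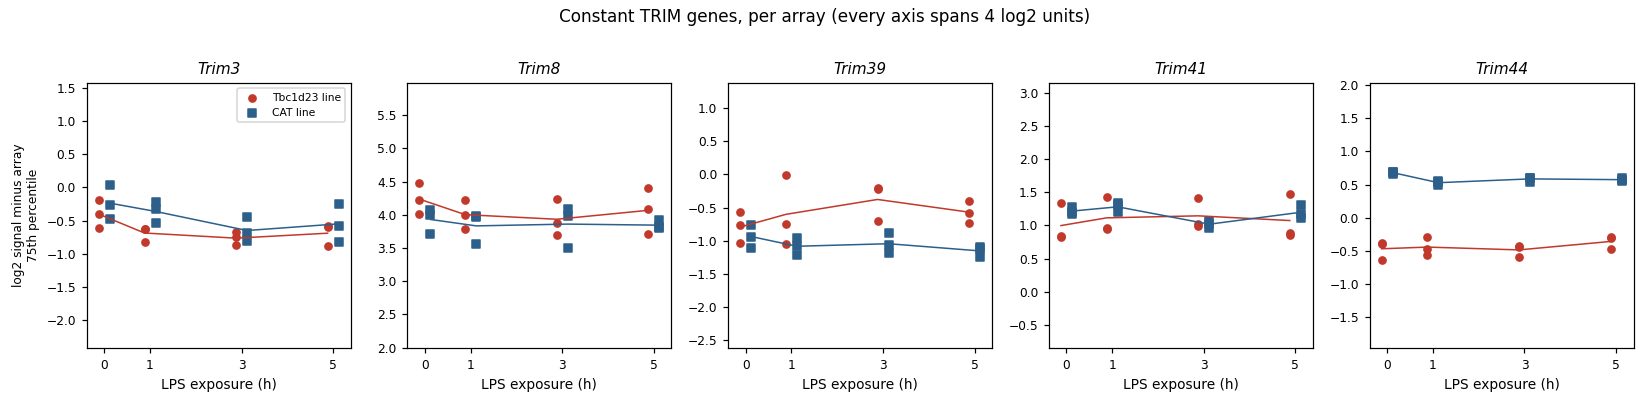
Levels (log2 signal minus the array's 75th percentile) on each array of 5 TRIM genes that were constant in both lines, against hours of LPS, for the Tbc1d23 line (circles) and the CAT line (squares); lines join group means and each axis spans 4 log2 units. Trim44 differs between the lines at all 4 times by this probe and moves little with LPS.

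Related genes were counted in the same fits. Of 6 TRIM-type proteins with other symbols that were tested, 0 were called in the Tbc1d23 line at any time. In the CAT line 4 rose and 0 fell at 3 and 5 h (all names 16.1% and 18.3% higher). Among them Pml, the scaffold of nuclear bodies, had a difference between the lines of -2.89 ± 0.24 at 5 h (adjusted p = 1.09e-08). Of 21 genes that are substrates or partners of TRIM ligases in sensing and interferon signalling, 4 rose and 0 fell at 3 h and 3 rose and 1 fell at 5 h in the Tbc1d23 line, where 3.49% and 3.02% of all names rose. In the CAT line 16 rose and 2 fell at 3 h and 16 rose and 1 fell at 5 h, where 16.1% and 18.3% of all names rose. Isg15, a ubiquitin-like modifier, responded by 0.81 ± 0.15 in the Tbc1d23 line (adjusted p = 0.00161) and 8.02 ± 0.15 in the CAT line (adjusted p = 6.58e-18) at 5 h. The RNA sensor gene Ifih1 responded by 0.27 ± 0.12 (adjusted p = 0.249) and 5.45 ± 0.12 (adjusted p = 3.01e-17). The difference of responses at 5 h was lower in 12 and higher in 2 of the 21, against 10.6% and 12.6% of all names. Both lists were chosen with earlier results of these data known.

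Not tested were 14 TRIM names with no probe well above background on all 3 arrays of any group: Trim2, Trim6, Trim9, Trim10, Trim12, Trim15, Trim17, Trim29, Trim31, Trim42, Trim50, Trim52, Trim60 and Trim61. Their probes were well above background on at most 9 arrays, and those of Trim29, Trim31 and Trim42 on 0. Of the 38 tested, 27 were well above background on 24 of 24 arrays. Trim7, Trim46, Trim62 and Trim63, which were in neither class, had no call in any comparison.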

How the data were processed

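RNA of 24 samples was hybridised to 1-colour (Cy3) Agilent arrays. The deposited intensity values are processed signals which, per the file headers, Agilent's Feature Extraction software (version 10.7.1.1) wrote, subtracted for background and detrended within each array; probe positions are mm9, per the file headers. The deposited log2 values, used as an alternative, are quantile-like across arrays; the submitters' processing notes name Agilent Feature Extraction, RMA and Partek without roles.

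From the signals, log2 minus each array's 75th percentile was computed. Of 41174 probes, 21960 passed the filter (all 3 arrays of 1 or more groups well above background), and the brightest probe per name left 15298 gene names. Differences were tested with limma 3.58.1 in R 4.3.3 (lmFit, eBayes, all 24 arrays, 8 groups, Benjamini-Hochberg adjustment over all names within a comparison, called at 0.05). The script was tested on simulated data. Fold bounds replace a dim probe's signal on an array by the lowest signal that still counted as well above background there, where this was higher. The number of arrays limits the precision.

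Per-array values are given for the 16 members with the largest called response or difference of responses. These were taken from members with a called response of at least 1 on the log2 scale or a called difference of responses of any size. They are also given for members called between the lines with 1 sign at all 4 times (at most 5 per direction), and for the 5 brightest constant members. The members and lists were chosen with earlier results of these data known. Replicate numbers pair samples within a line, since arrays of 1 slide deviated together (36 pairs, r = 0.18 to 0.83), but not across the lines (12 pairs, r = -0.41 to -0.07). Alternatives were other scalings, the deposited values, normexp background, other filters and probes, blocks for slide, slide run and replicate, and leaving out each array.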

Additional observations from a re-analysis of the deposited data

Results flagged for a closer look

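For 17 TRIM genes the LPS response itself differed between the lines (limma interaction, Tbc1d23 minus CAT, adjusted p under 0.05 over all gene names, log2 scale). A smaller response or a fall in the Tbc1d23 line against a rise in the CAT line was measured for Trim30 (-4.96 at 5 h), Trim34 (-4.49 at 5 h, with CAT arrays at background at 0 h), Trim21 (-3.44 at 3 h), Trim13 (-1.90 at 5 h), Trim69 (-1.77 at 5 h, with CAT arrays at background at 0 h), Trim25 (-1.73 at 5 h), Trim56 (-1.72 at 5 h), Trim36 (-1.63 at 3 h), Trim14 (-1.56 at 5 h) and Trim26 (-1.46 at 5 h). A smaller fall in the Tbc1d23 line was measured for Trim16 (1.75 at 3 h), Trim47 (1.74 at 5 h), Trim37 (1.54 at 5 h), Trim65 (1.23 at 5 h), Trim24 (0.97 at 5 h), Trim28 (0.71 at 5 h) and Trim45 (0.66 at 5 h, a sign that its other probe turns). Trim34 and Trim69 passed the filter on dim probes only through groups of 1 line, where they are high. Each kept its sign within the slide run that holds both lines.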

How the results depend on the processing

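Of 136 named results, 73 were called in every alternative other than another probe. Leaving out 1 array gave 3264 checks, of which 3160 stayed called, 104 lost the call and 0 changed sign. Median scaling kept 97 calls, lost 37 and turned 2: Trim13 between the lines at 0 h (-0.23) and Trim25 in the Tbc1d23 line at 3 h (0.0032). The cause was not tested.

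With no filter on dim probes 52 members were tested, and with the filter on all 24 arrays 27. Counts under these settings are over those members and not over 38. The number of members called in the Tbc1d23 line at 1 h was 4 with no filter on dim probes (all names 146 higher and 1248 lower). At 3 h it was 1 with median scaling, 3 with the deposited values, 3 with normexp background, 0 within the slide run that holds both lines (1 array per time) and 11 with the replicate block. At 5 h it was 0 with quantile normalization, median scaling, the deposited values, normexp background, the filter on all 24 arrays and within the slide run, 2 with no filter, with the mean of probes and with the slide run block, and 5 with the replicate block. In the CAT line it was 5 with quantile normalization, 1 with median scaling, 4 with the mean of probes, 7 with the slide run block and 10 with the replicate block at 1 h, and 12 with median scaling at 3 h. Between the lines it was 12 within the slide run at 0 h, and 11 with median scaling, 12 with the filter on all 24 arrays and 11 within the slide run at 1 h. For the difference of responses it was 0 with median scaling, 3 with the slide run block and 3 with the replicate block at 1 h, 5 with median scaling and 19 with the replicate block at 3 h, and 8 with median scaling at 5 h. Responsive members in the Tbc1d23 line numbered 1 with median scaling, 3 with the deposited values, 3 with normexp background, 0 within the slide run and 12 with the replicate block. Constant members numbered 2 with median scaling and 35 with normexp background in the Tbc1d23 line, and 14 with normexp background in the CAT line. The replicate block of each line's slides ended 0 of 68 named calls, and a block for the number shared by the lines ended 2 of 68.

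Without 1 array at a time the counts ranged over 0 to 0, 2 to 6 and 0 to 1 in the Tbc1d23 line at 1, 3 and 5 h and over 2 to 3, 18 to 22 and 18 to 22 in the CAT line. Between the lines they ranged over 15 to 20, 13 to 20, 18 to 23 and 21 to 25 at 0, 1, 3 and 5 h, and for the difference of responses over 1 to 2, 10 to 15 and 14 to 16 at 1, 3 and 5 h. Responsive members ranged over 2 to 6 in the Tbc1d23 line and 21 to 26 in the CAT line, and constant members over 21 to 24 and 6 to 9. The 5 called at 3 h in the Tbc1d23 line became 3, 2 and 2 without Tbc1d23 replicate 1 at 0 h, replicate 1 at 3 h and replicate 3 at 0 h, and 3 without replicate 2 or replicate 3 at 3 h. The difference at 1 h became 2 without Tbc1d23 replicate 3 at 0 h. The 5 h call in the Tbc1d23 line, Trim65, was lost without any of 15 arrays: Tbc1d23 replicate 1 at 0, 1, 3 and 5 h, replicate 2 at 3 h and replicate 3 at 0, 3 and 5 h, and CAT replicate 1 at 0, 1, 3 and 5 h, replicate 2 at 0 and 1 h and replicate 3 at 0 h.

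Another probe of the gene turned Trim37 between the lines at 1 h (0.11), Trim24 between the lines at 0 h (-0.091) and 1 h (-0.53; -0.081 with the mean of probes), and Trim44 between the lines at 0, 1, 3 and 5 h (0.53, 0.86, 0.34 and 0.38). It turned Trim45 in the CAT line at 3 and 5 h (0.025 and 0.24), between the lines (-0.70, or -0.019 with the mean of probes, and -0.65) and in the difference of responses (-0.59 and -0.54). For Trim39 between the lines, other probes gave -0.81 and -0.092 at 3 h and -0.83 at 5 h. The planned normexp background with its default fit was not run, because the fit failed on 6 arrays; the version with repaired parameters was chosen after seeing the data, as were the class counts under each alternative.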
